A study of Sus scrofa with 6 samples.

Results

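The genes described here are 10 chemokines and cytokines that a culture of Sertoli cells can secrete: CXCL2, CXCL8, CCL2, CCL20, IL6, IL1A, IL18, LIF, CSF1 and TNFSF14. They were picked by symbol, with earlier results of the same comparison known. Their differences between MT and Control are therefore given as a description, with no p-value, and counts from the fit across all genes are printed beside the share of all genes with nothing read from them. Of the 10 symbols, 9 could be paired with a row of the deposited table, which holds 20731 genes. CCL20, a chemokine for the receptor CCR6, could not be paired with an identifier, and no value is given for it. Of the 9 measured genes, 8 had a mean of at least 1 FPKM (fragments scaled to gene length and to library size) over all libraries and entered the fit across 10950 genes. IL18 did not.

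The 6 RNA libraries, 3 labelled Control and 3 labelled MT, came from pig Sertoli cells in the immature state, the cells that nurse germ cells in the testis. The MT cells had been given the pineal hormone melatonin, 10 nM over 36 h. The labels give no dose, time or solvent for the Control cells, and name no allele, age or strain for either group. Whether replicates were separate cultures or separate animals is not said, and the p-values therefore reflect spread between libraries that may be technical.

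Chemokines attract leukocytes through G protein-coupled receptors, while interleukins, colony-stimulating factors and members of the tumour necrosis factor family act through other receptor classes. Many of these ligands are induced through NF-kB, and several in turn activate NF-kB or STAT factors in the cells that receive them. In the testis, Sertoli cells are a known source of interleukin 1 alpha.

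The library totals, worked out from the FPKM values, ran from 19579279 to 21500665 reads. The library labelled Control replicate 3 differed from the rest. Across the tested genes its correlation was 0.938 and 0.939 with the other Control libraries and 0.952 to 0.975 with the MT libraries, where genes are not independent replicates. The differences of the 8 fitted genes are therefore also given without it. So are other printed differences where leaving it out changes the sign, the call or the size by more than 1.5 times. Of 13 Sertoli markers, 10 were in the table and 6 had a mean of at least 1 FPKM. WT1 was at means of 10.6 FPKM in Control against 11.5 in MT, AMH at 13.4 and 12.1 and SOX9 at 2.13 and 1.68. VIM was at 2620 and 2960 FPKM, KRT18 at 82.5 and 84.6 and BEX1 at 1.75 and 2.62. BEX1 was higher in MT without overlap, which was so for 6.24% of tested genes. TF was at 0.271 and 0.293 FPKM, while DHH, INHA and DMRT1 were at or near 0. The summed level of 9 macrophage markers was 207 to 391 FPKM in Control against 241 to 292 in MT. Nearly all of it came from CD74 (means of 256 and 259 FPKM). CD74 stood at 193, 197 and 377 FPKM in Control against 277, 226 and 275 in MT. Its log2 difference was 0.08 (SE 0.27), and 0.4 (SE 0.1, limma adjusted p 0.0487) without Control 3, where 4.28% of tested genes were called higher. The macrophage markers CD14 (7.08 and 7.43 FPKM), CD68 (3.73 and 4.82) and TYROBP (1.24 and 1.57) were also present. Like BEX1 and 6.24% of tested genes, CD68 was higher in MT without overlap, while CD14, TYROBP and CD74 overlapped. CD163, CSF1R, ITGAM and MRC1 had means under 0.1 FPKM in each group, and AIF1 was at 0.439 and 0.289. The T cell marker CD3E was at 0.382 and 0.324 FPKM with CD8A near 0, and the endothelial marker PECAM1 at 0.241 and 0.242 with CDH5 near 0. Of the myoid cell markers, TAGLN was at 202 and 172 FPKM and DES at 5.94 and 7.98. The myoid markers ACTA2 (0.134 and 0.107) and MYH11 (0.00791 and 0.0209) were low, and CNN1 was at 1 and 0.862. Of the Leydig cell markers, STAR was at 2.28 and 2.36 FPKM and CYP11A1 at 1.86 and 2.04, with CYP17A1 near 0. The part of such cells in the results was not tested. In bulk RNA, fewer cells of a type and less RNA per cell cannot be told apart.

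By level, which FPKM allows to be set side by side between genes of different length, the 9 genes spanned a wide range. CSF1 and IL1A were the most abundant, with means over 6 libraries of 60.1 and 58.5 FPKM, above 92.9% and 92.7% of tested genes. CXCL2 (21.4 FPKM), CXCL8 (21.1) and LIF (17.2) followed, then IL6 (9.17). TNFSF14 (2.01), CCL2 (1.82) and IL18 (0.607) were at the low end. The spread between libraries of IL1A, CXCL8 and CSF1 was larger than the gaps between neighbours in this order, so CSF1 and IL1A, and CXCL2, CXCL8 and LIF, cannot be ranked against each other. The summed FPKM of the 9 genes was 213, 286 and 215 in Control replicates 1 to 3 and 143, 174 and 122 in MT replicates 1 to 3. All 3 MT sums lay below all 3 Control sums, which the choice of these genes could set. CSF1 made up 20.6% to 37.2% of that sum in Control and 33.2% to 46.3% in MT, and IL1A 22.3% to 36.9% and 23.9% to 31%.

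**Figure D1:**
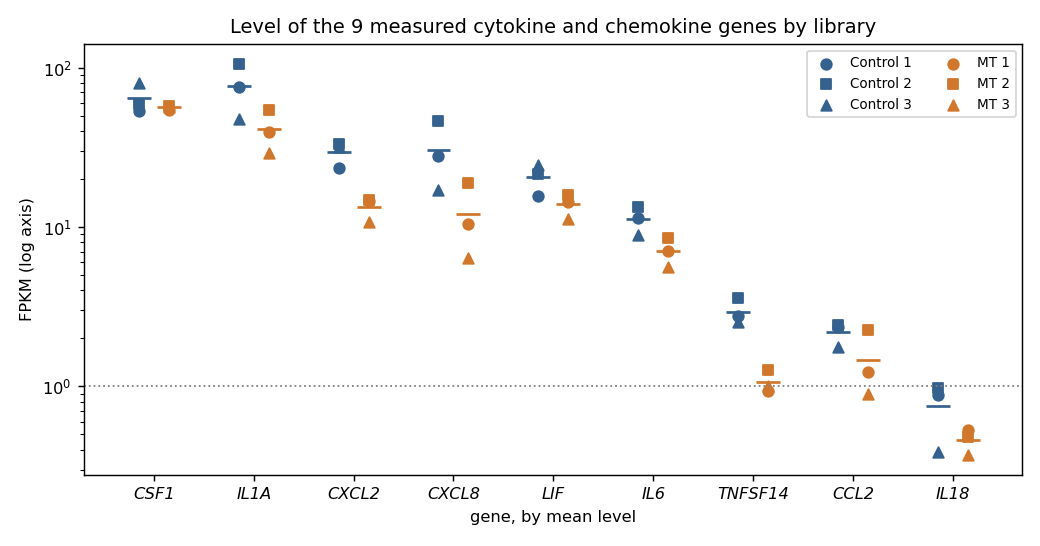
FPKM (log axis) of the 9 measured genes, ordered by mean level, with 1 point per library, Control in blue and MT in orange, replicates 1 to 3 as circles, squares and triangles, and short bars at the group means. The dotted line is 1 FPKM, the limit for entering the fit; MT points lie below every Control point in CXCL2, IL6 and TNFSF14, and IL18 lies below the line in all 6 libraries.

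Every gene in the fit had a lower mean in MT than in Control on the log2(FPKM + 1) scale. The differences ran from -1.28 in CXCL8 to -0.17 in CSF1 with a median of -0.73, beside a median of 0.02 over all 10950 tested genes, of which 44% were below 0. In 3 of the 9 measured genes (CXCL2, IL6 and TNFSF14) all MT libraries were lower than all Control libraries, which was so for 4.99% of tested genes. In limma with Benjamini-Hochberg adjustment, 0 of 10950 genes passed an adjusted p of 0.05 (0%), so 0 of the 8 genes did. At an unadjusted p under 0.05 there were 517 genes by limma and 495 by limma voom on recovered reads, which also called 0. Without Control 3, limma called 6.62% of tested genes lower and 5 of the 8 genes were among them. Because the genes were picked with this contrast in view, nothing is read from these counts.

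**Figure D2:**
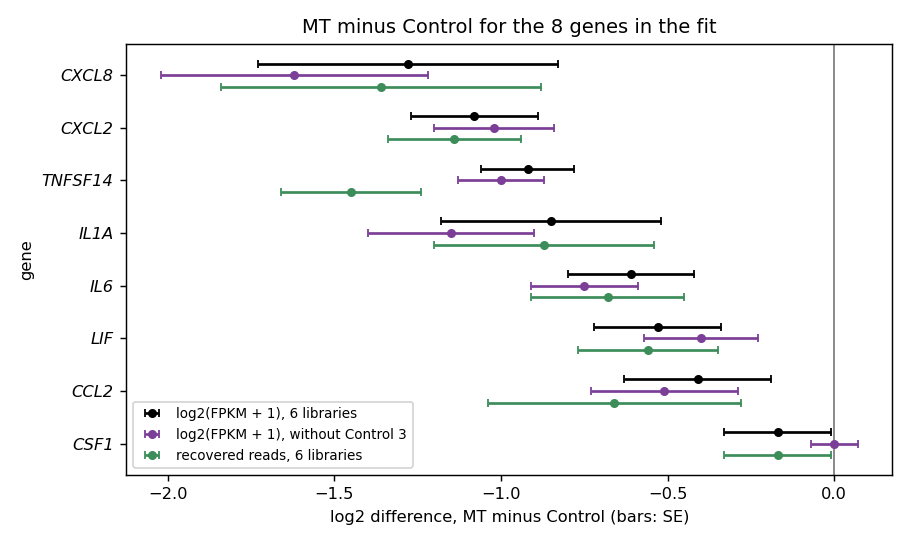
Difference between MT and Control (horizontal axis, log2, bars are SE) for the 8 genes in the fit, on log2(FPKM + 1) with 6 libraries (black), the same without Control 3 (purple), and from recovered reads by limma voom (green). CXCL8 and IL1A lie further from 0 without Control 3, CSF1 moves to 0.00, and TNFSF14 is at -1.45 on the read scale against -0.92 on log2(FPKM + 1).

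CXCL2 and CXCL8 are CXC chemokines that draw neutrophils through CXCR2, and CXCL8 also through CXCR1. CXCL2 (ENSSSCG00000008959) lies on chromosome 8 of Sscrofa11.1 from 70157253 to 70159145. It stood at 23.3, 33.3 and 31.8 FPKM in Control replicates 1 to 3 against 14.6, 14.8 and 10.7 in MT replicates 1 to 3. The groups did not overlap, and the highest MT library was well under the lowest Control library. The means were 29.5 ± 5.37 and 13.4 ± 2.34 FPKM (SD, n = 3), a log2 difference of -1.08 (SE 0.19), and -1.02 (SE 0.18) without Control 3. The values rested on 853 to 2575 reads. The gene length implied by its FPKM was 3860 bases, more than the RefSeq span of 1893 bases, so the authors' gene model was longer than the RefSeq gene and its per-length level depends on that model.

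CXCL8 (ENSSSCG00000008953, chromosome 8, 69932646 to 69935861) stood at 27.7, 46.1 and 17.1 FPKM in Control against 10.5, 19 and 6.4 in MT. The groups overlapped because MT 2 lay above Control 3, and the libraries within each group were far apart. The means were 30.3 ± 14.7 and 12 ± 6.41 FPKM (SD, n = 3). On the log2 scale the difference was -1.28 (SE 0.45), and -1.62 (SE 0.40) without Control 3. Reads numbered 254 to 1771, and the spread within Control was 280 times what counting alone gives (chi-square per degree of freedom), so depth did not limit this gene. The ratio of CXCL8 to CXCL2 in FPKM was not constant. It was 1.19, 1.39 and 0.538 in Control and 0.719, 1.28 and 0.6 in MT, so the libraries of 1 group differed in it by more than the groups did.

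CCL2, which draws monocytes through CCR2, was close to the limit of what could be read. This gene (ENSSSCG00000017723, chromosome 12, 40798109 to 40800013) stood at 2.36, 2.43 and 1.76 FPKM in Control against 1.23, 2.25 and 0.891 in MT, from 35, 37, 28, 20, 35 and 14 reads. The groups overlapped, since MT 2 lay above Control 3. The 14 reads of MT 3 have a 95% exact Poisson interval of 7.65 to 23.5 reads, or 0.487 to 1.49 FPKM, which covers counting error only. The log2 difference was -0.41 (SE 0.22) on the log2(FPKM + 1) scale, -0.51 (SE 0.22) without Control 3 and -0.66 (SE 0.38) from reads by limma voom. It was -0.63 without MT 2 and -0.24 without MT 3. The reads of this gene varied about as counting alone gives in Control (chi-square per degree of freedom 0.975) and more than that in MT (5.42).

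IL1A encodes interleukin 1 alpha, which acts on neighbouring cells through IL1R1 and its partner IL1RAP. It (ENSSSCG00000008090, chromosome 3, 43718320 to 43731668) stood at 75.1, 106 and 47.9 FPKM in Control against 39.5, 53.9 and 29.2 in MT. Control 1 and Control 2 were above all MT libraries, and Control 3 lay within the MT range. The means were 76.2 ± 28.9 and 40.9 ± 12.4 FPKM (SD, n = 3). The log2 difference was -0.85 (SE 0.33) with 6 libraries and -1.15 (SE 0.25) without Control 3, from 1087 to 3800 reads.

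IL18, an interleukin 1 family cytokine released after cleavage by caspase 1, was too low to enter the fit. IL18 (ENSSSCG00000015037, chromosome 9, 39839959 to 39861258) stood at 0.885, 0.982 and 0.389 FPKM in Control against 0.535, 0.48 and 0.37 in MT. Control 1 and Control 2 were the highest, and Control 3 lay between MT 3 and MT 2. These low values still rested on 46 to 118 reads, because the gene length implied by its FPKM was 6002 bases. With the limit lowered to 0.3 FPKM the difference was -0.25 (SE 0.15). CASP1, the gene of caspase 1, was itself at a mean of 0.0962 FPKM, with at most 12 reads in any library.

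IL6 and LIF are cytokines that signal through the shared receptor chain gp130, which is encoded by IL6ST. IL6 (ENSSSCG00000020970, chromosome 9, 91506421 to 91510830) stood at 11.4, 13.4 and 8.97 FPKM in Control against 7.05, 8.52 and 5.59 in MT. The groups did not overlap, but the gap between Control 3 and MT 2 was narrow. The means were 11.3 ± 2.23 and 7.06 ± 1.46 FPKM (SD, n = 3), a log2 difference of -0.61 (SE 0.19), and -0.75 (SE 0.16) without Control 3. Reads numbered 146 to 339.

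LIF (ENSSSCG00000040961, chromosome 14, 47221540 to 47239513), a factor known for its effects on stem and germ cells, stood at 15.7, 21.6 and 24.4 FPKM in Control against 14.4, 15.9 and 11.3 in MT. Control 1 lay just under MT 2, so the groups overlapped. The means were 20.6 ± 4.4 and 13.9 ± 2.33 FPKM (SD, n = 3), with a log2 difference of -0.53 (SE 0.19). Unlike CXCL8 and IL1A, LIF was highest in Control 3, and without that library its difference was -0.40 (SE 0.17).

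CSF1 is the growth factor of macrophages. It (ENSSSCG00000037449, chromosome 4, 110178466 to 110198232) stood at 53.5, 59 and 79.7 FPKM in Control against 54.3, 57.7 and 56.6 in MT. Control 3 was far above the other 5 libraries, and those 5 lay close together. The means were 64.1 ± 13.8 and 56.2 ± 1.76 FPKM (SD, n = 3) with a log2 difference of -0.17 (SE 0.16), and without Control 3 the difference was 0.00 (SE 0.07). Without Control 1 it was -0.28. The lower mean of CSF1 in MT was thus not seen without Control 3. At 4631 to 7382 reads per library, CSF1 was the most deeply read of the 9 genes.

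TNFSF14, also called LIGHT, is a tumour necrosis factor family cytokine that binds the receptors LTBR and TNFRSF14. This gene (ENSSSCG00000026695, chromosome 2, 72478178 to 72483885) stood at 2.75, 3.56 and 2.52 FPKM in Control against 0.936, 1.26 and 1.01 in MT. The groups did not overlap, and Control 3 was nearest to MT without reaching it. The reads were 254, 337 and 249 in Control and 95, 122 and 99 in MT. The 95% exact Poisson interval was 101 to 146 reads for MT 2, the highest MT library, and 219 to 282 reads for Control 3, the lowest Control library, so these intervals did not meet. They cover counting error only.

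The size of the TNFSF14 difference depended on the scale. On log2(FPKM + 1) it was -0.92 (SE 0.14), and -1 (SE 0.13) without Control 3. Adding 1 FPKM to values near 1 shrinks the difference, which was -1.13 with 0.5 FPKM added, -1.37 with 0.1 FPKM added and -1.45 (SE 0.21) from reads by limma voom. On the read scale TNFSF14 thus had a more negative difference than CXCL8 (-1.36, SE 0.48), while on log2(FPKM + 1) it had the smaller. No order between these genes is read from this.

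The 9 genes did not follow a single pattern over the libraries. In Control 3, CXCL8 lay -1.02 on the log2(FPKM + 1) scale from the mean of Control 1 and Control 2, IL1A -0.88, IL18 -0.48, IL6 -0.43, CCL2 -0.30 and TNFSF14 -0.23. CXCL2 lay 0.19, LIF 0.38 and CSF1 0.50 above that mean. Control 3 was thus the lowest Control library in 6 of 9 genes and the highest in LIF and CSF1, beside 48.3% and 45.3% of all tested genes. Within MT, MT 3 was the lowest library in 7 of the 9 genes and MT 2 the highest in 8. Of all tested genes, 24.9% were lowest in MT 3 and 38.8% highest in MT 2. Control 2 was the highest Control library in 7 of the 9, beside 23.6% of tested genes. These genes share their libraries, so their counts are not independent of each other.

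**Figure D3:**
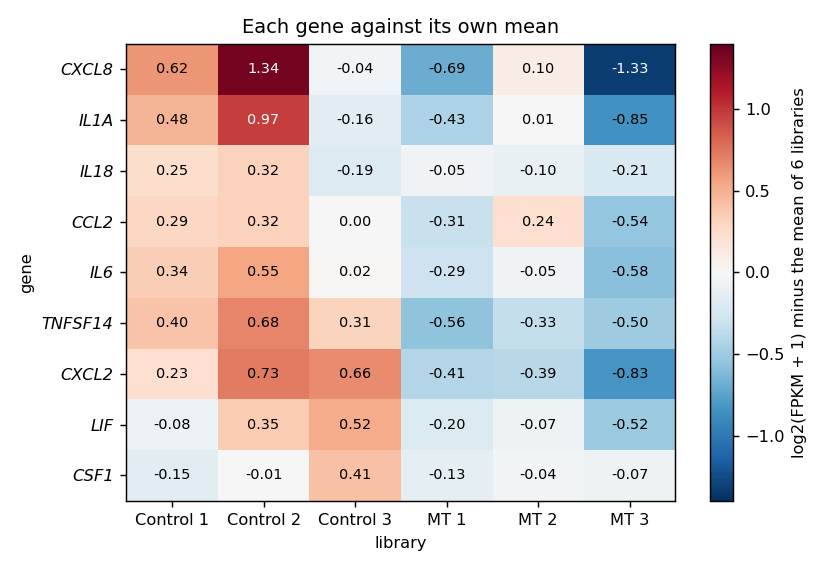
Each cell is log2(FPKM + 1) of a gene (rows) in a library (columns) minus that gene's mean over the 6 libraries, red above and blue below. CXCL8 ranges from 1.34 in Control 2 to -1.33 in MT 3, CSF1 departs from its mean mainly in Control 3 (0.41), and MT 2 is the palest MT column for CXCL8, IL1A and IL6.

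Between genes, likeness was measured as the root mean square difference of log2(FPKM + 1) over the 6 libraries after each gene's own mean was taken off. Among the 8 genes in the fit the nearest pair was CCL2 and IL6 (0.154), followed by IL6 and TNFSF14 (0.208) and CXCL2 and TNFSF14 (0.221). The most distant pair was CXCL8 and CSF1 (0.871). CXCL2 and CXCL8 were 0.516 apart although both are neutrophil chemokines of the same chromosome region.

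Of 9475 other tested genes with a symbol, AMCF-II was the nearest to CXCL8, at 0.0888. This gene (ENSSSCG00000008957), which the RefSeq table also lists under CXCL6, encodes another pig CXC chemokine. It lies on chromosome 8 from 70008225 to 70010360, between CXCL8 and CXCL2, with 72364 bases to the former and 146893 to the latter. AMCF-II stood at 69.9, 122 and 53.2 FPKM in Control against 32, 52.8 and 18.9 in MT, so it was more abundant than CXCL8 in each library. The ratio of AMCF-II to CXCL8 in FPKM was 2.53, 2.64 and 3.1 in Control and 3.04, 2.78 and 2.95 in MT. This ratio varied far less than either gene. The 3 MT values of AMCF-II lay below the 3 Control values by a narrow margin between MT 2 and Control 3. Its log2 difference was -1.25 (SE 0.42, limma adjusted p 0.902), and -1.51 without Control 3 (adjusted p 0.0546). Choosing AMCF-II for its nearness to CXCL8 favours lower MT values in it. CXC chemokine genes are related in sequence, how the authors' counting treated shared reads is not given in the sources used here, and whether shared reads bear on this likeness was not tested.

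The second nearest to CXCL8 was the small nucleolar RNA SNORA4 (0.354), which rested on 0 to 13 reads and cannot be read. The third was MMP7 (0.37), a matrix metalloprotease, at 53.7, 56.5 and 24.7 FPKM in Control against 23.3, 31.5 and 18.7 in MT. Its low value in Control 3 lay within the MT range, as in CXCL8. The log2 difference of MMP7 was -0.8 (SE 0.34), and -1.17 without Control 3 (limma adjusted p 0.026). That fit called 6.62% of tested genes lower, and choosing the genes nearest to CXCL8 favours such a call.

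The nearest genes to TNFSF14 were LIPG (0.103), endothelial lipase, IER3 (0.105), an immediate early gene, and TNFAIP3 (0.141), an inhibitor of NF-kB signalling. LIPG stood at 338, 373 and 316 FPKM in Control against 182, 222 and 162 in MT. IER3 stood at 108, 150 and 112 and at 61.2, 71.8 and 53.2, and TNFAIP3 at 5.44, 7.47 and 6.23 and at 3.53, 3.8 and 3.06. The nearest to CXCL2 were NFKBIA (0.113), which holds NF-kB in the cytoplasm, RND1 (0.134), a small GTPase, and again IER3 (0.151). NFKBIA stood at 53.6, 69.5 and 72.8 FPKM in Control against 36.4, 36.5 and 30.1 in MT, and RND1 at 12.4, 17.9 and 20.6 and at 7.62, 7.89 and 7.03. In these 5 genes, as in TNFSF14 and CXCL2, the groups did not overlap, which choosing the nearest patterns favours. Without Control 3, limma called these 5 genes lower, beside 6.62% of tested genes, and the same choice favours that. The differences were then -0.92 for LIPG (adjusted p 0.0239), -1.04 for IER3 (0.0253) and -0.73 for TNFAIP3 (0.0327). Those of NFKBIA and RND1 were -0.82 (0.0258) and -0.9 (0.0251). None of these genes passed with 6 libraries. For TNFSF14 the likeness depended on the scale. With 0.1 FPKM added in place of 1, a choice made after seeing the data, IER3 was nearest at 0.219, then SCD, a fatty acid desaturase, at 0.241 and LIPG at 0.276, and TNFAIP3 was the fifth at 0.293. From reads by limma voom the difference of TNFSF14 was -1.45, beside -0.87 for LIPG, -0.99 for IER3 and -0.87 for TNFAIP3. The 3 nearest genes of CXCL2 and the nearest of CXCL8 were the same with 0.1 FPKM added, at 0.131 for NFKBIA and 0.105 for AMCF-II.

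**Figure D4:**
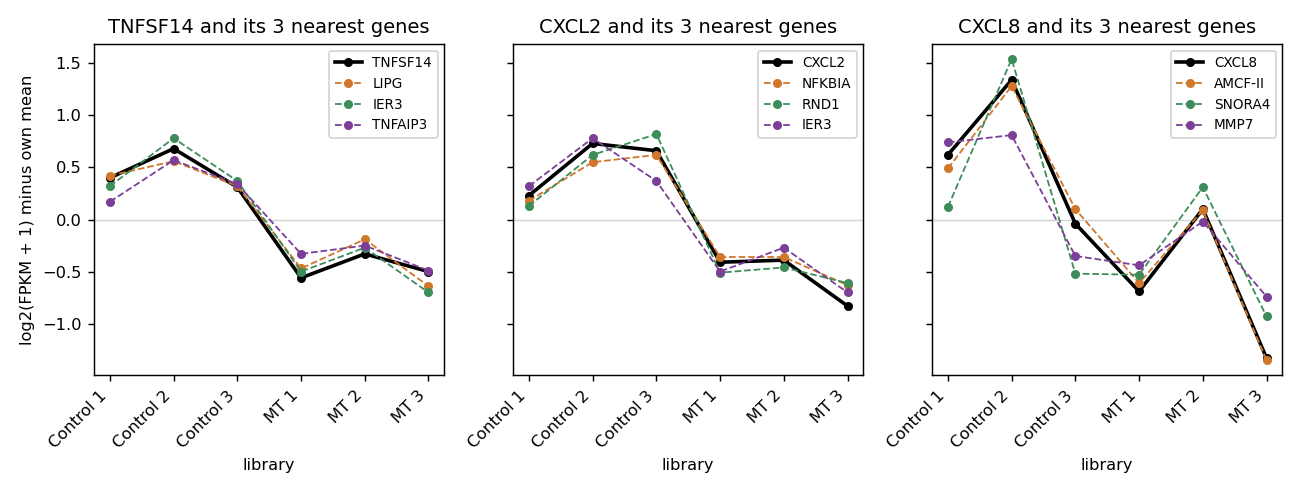
Log2(FPKM + 1) minus each gene's own mean (vertical axis) in the 6 libraries (horizontal axis) for TNFSF14, CXCL2 and CXCL8 (solid black) and the 3 nearest genes of each (dashed); lines only join the points of 1 gene. AMCF-II follows CXCL8 in every library, from Control 2 as the highest to MT 3 as the lowest, while TNFSF14 and CXCL2 and their nearest genes part the groups.

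Genes around these cytokines were taken from 5 lists with 134 distinct symbols, of which 97 were in the table and 65 in the fit. CXCL6 was not matched by its symbol, and AMCF-II, which carries that name as a synonym, is not among the 65. In limma over all genes 0 of the 65 passed, with the smallest adjusted p at 0.736, and limma voom on reads also passed 0. At an unadjusted p under 0.05 there were 6 of the 65 in limma and 5 in limma voom. Without Control 3, 5 were called lower (IL6ST, IL1R1, IL1RAP, BIRC3 and VCAM1) and 2 higher (CTF1 and CAPN1), beside 6.62% lower and 4.28% higher among all tested genes.

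Of 55 symbols of other ligands, 33 were in the table and 10 in the fit, with 5 lower, 5 higher and a median log2 difference of 0.01. With AMCF-II read as CXCL6, 11 were in the fit, with 6 lower, 5 higher and a median of -0.01, and AMCF-II (-1.25, described above) was the most negative of them. The most abundant was MIF, the macrophage migration inhibitory factor, at means of 103 ± 43.2 FPKM in Control against 91.8 ± 9.6 in MT (SD, n = 3). IL11, a gp130 cytokine like IL6 and LIF, was at 41.5 ± 10.4 and 39.7 ± 5.64 FPKM, and its log2 difference was -0.04 (SE 0.21), and 0.11 without Control 3. That of MIF was -0.10 and 0.22. The tumour necrosis factor family ligands TNFSF9, TNFSF12 and TNFSF13 had differences of -0.05, 0.14 and 0.10, beside -0.92 for TNFSF14, and of 0.06, 0.36 and 0.23 without Control 3. The chemokine CCL5 was at 17.1, 16.2 and 19.5 FPKM in Control against 15.1, 13.7 and 12.7 in MT. Like AMCF-II, CCL5 was lower in MT without overlap, as were 4.99% of tested genes. Its difference was -0.33 (SE 0.12, limma adjusted p 0.962). CTF1, a further gp130 cytokine, had a difference of 0.39 (SE 0.20) and rose without Control 3 (0.60, limma adjusted p 0.0366), from as few as 31 reads. The other 23 ligands in the table had means of at most 0.445 FPKM, and 14 of them had fewer than 10 reads in every library, among them CXCL10, CXCL11, CCL4 and CSF2.

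Receptors were measured for some of the ligands. Of 16 symbols 9 were in the table and 6 in the fit. LTBR, a receptor of TNFSF14, was at 17.5, 18 and 24.7 FPKM in Control against 22.2, 19.9 and 24.6 in MT. The groups overlapped, and the log2 difference was 0.15 (SE 0.16), beside -0.92 for its ligand, and 0.31 without Control 3. IL1R1, which binds IL1A, was at 15.1, 16.7 and 11 FPKM in Control against 9.58, 10.2 and 8.74 in MT, without overlap. Its difference was -0.52 (SE 0.17, limma adjusted p 0.836), and it fell without Control 3 (-0.68, adjusted p 0.0197). IL1RAP also fell without Control 3 (-0.37, limma adjusted p 0.0349). Its levels were 14.6, 14.7 and 9.1 FPKM in Control against 10.8, 10.7 and 11.7 in MT, and the difference with 6 libraries was -0.16.

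The gp130 gene IL6ST was at 12.6, 12 and 4.41 FPKM in Control against 7.27, 9.63 and 8.12 in MT. Control 3 was the lowest of the 6 libraries, so the difference was -0.08 (SE 0.35) with it and -0.52 without it (limma adjusted p 0.0402). LIFR (difference 0.08, and -0.15 without Control 3) and IL6R (-0.10) overlapped between the groups, and IL6R was low at a mean of 1.17 FPKM. CSF1R, the receptor of CSF1, was at a mean of 0.0396 FPKM with at most 5 reads in any library, against 4631 or more reads for its ligand. IL18RAP was at 0.00718 FPKM with at most 1 read.

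Of 21 genes for processing, decoys and mRNA decay, 14 were in the fit, with 9 lower, 5 higher and a median of -0.06. The most abundant, CAPN2, HNRNPD, ZFP36L1, KHSRP, ZFP36L2 and CAPN1, had differences of -0.13, -0.15, 0.10, -0.04, -0.13 and 0.19, and of -0.02, -0.28, 0.16, 0.07, -0.03 and 0.35 without Control 3. CAPN1 and CAPN2 are calpains, proteases that cut the IL1A precursor, and HNRNPD, KHSRP and the ZFP36 family bind AU-rich elements in cytokine mRNAs. CAPN1 rose without Control 3 (0.35, limma adjusted p 0.0364). ZC3H12A, a ribonuclease that degrades IL6 mRNA, was named after its values were seen. It was the only gene of this list without overlap, beside 4.99% of tested genes lower and 6.24% higher without overlap. ZC3H12A stood at 21.4, 29 and 30.3 FPKM in Control against 16.2, 19.4 and 12.8 in MT. Its difference was -0.71 (SE 0.19, limma adjusted p 0.736), and -0.62 without Control 3 (adjusted p 0.065).

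In the pathway downstream of the TNFSF14 receptors, 9 of 11 symbols were in the fit, with a median of -0.04. TRAF2, an adaptor of these receptors, was at 29.5, 32.5 and 41.7 FPKM in Control against 25.4, 26.8 and 23.1 in MT, and its groups did not overlap (difference -0.43, SE 0.15, limma adjusted p 0.912, and -0.29 without Control 3). NFKB2 had no overlap either, but its difference was -0.23 and shrank to -0.08 without Control 3, where it was highest. Among all tested genes, 4.99% were lower in MT without overlap. RELB, the partner of NFKB2, was at -0.04 and TRAF3 at -0.15, and without Control 3 they were at 0.19 and -0.10. BIRC3 is an inhibitor of apoptosis that joins these receptor complexes. It was at 14.6, 15.6 and 5.94 FPKM in Control against 8.56, 11.8 and 8.71 in MT, lowest in Control 3. Its difference was -0.20 (SE 0.34) with 6 libraries, and -0.60 without Control 3 (limma adjusted p 0.0419).

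Of 33 intracellular and surface genes known to respond to or relay IL6, LIF and IL1, 27 were in the fit, with 17 lower, 10 higher and a median of -0.05. In 6 of the 27 the MT values lay wholly below Control, and in 0 wholly above, beside 4.99% and 6.24% of tested genes. CEBPB, a transcription factor of the acute phase, was at 111, 133 and 205 FPKM in Control against 105, 99.8 and 102 in MT, a difference of -0.50 (SE 0.22) that was -0.25 without Control 3. CEBPD was at -0.30 and the adhesion molecule ICAM1 at -0.35, and at -0.14 and -0.22 without Control 3, and neither passed in either fit. SOCS3, the feedback inhibitor that gp130 signalling induces, was at 32, 33.6 and 46.3 FPKM in Control against 34.9, 30.4 and 35.1 in MT, with a difference of -0.14 (SE 0.16) and 0.02 without Control 3. TIMP1 (-0.16, and 0.01 without Control 3) and TYK2 (-0.05, and 0.13) overlapped between the groups. VCAM1, an adhesion molecule named because it passed without Control 3 (-0.66, limma adjusted p 0.0364), was at means of 2.41 and 1.45 FPKM. With 6 libraries its difference was -0.44 (SE 0.22), and Control 3 (1.42 FPKM) lay within the MT range.

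**Figure D5:**
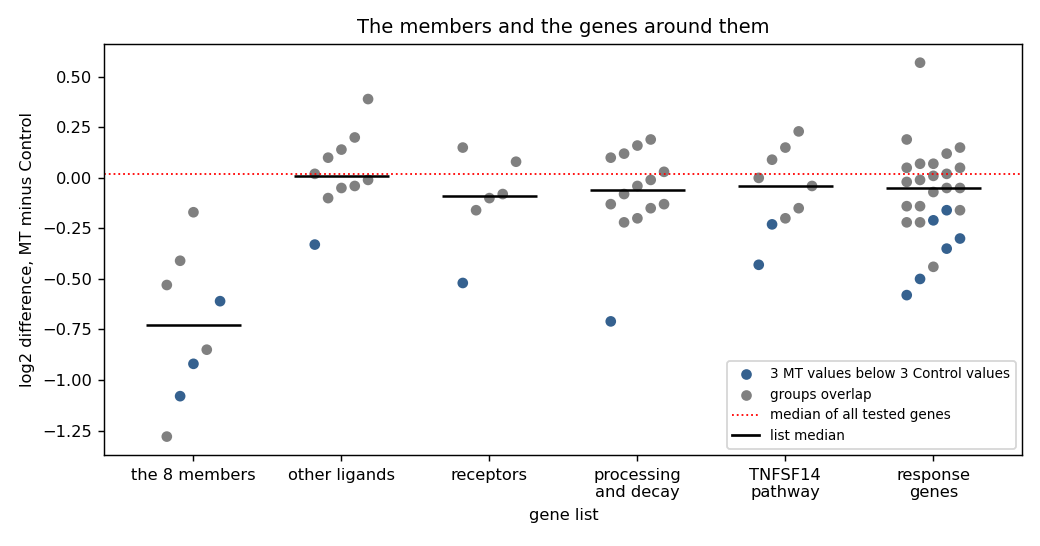
Difference between MT and Control on log2(FPKM + 1) (vertical axis) for the 8 genes in the fit and for the tested genes of the 5 lists around them, with 1 point per gene, blue where the 3 MT values lie below the 3 Control values. Black bars are list medians and the red dotted line is the median of all tested genes (0.02); the 8 genes have a median of -0.73, which their choice could set, and the 5 lists lie between -0.09 and 0.01.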

How the data were processed

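The deposited table holds FPKM for 6 libraries in 6 columns, which the authors computed per library without pooling, per the file headers. Per the submitters' processing notes, the tools were Subread, featureCounts, HISAT2 and bcl2fastq, and the build was Sscrofa11.1. The sources used here do not give strand, annotation release or treatment of shared reads. Symbols matched 13173 of 20731 identifiers (63.5%), and positions are those of the symbol in RefSeq's Sscrofa11.1. Whole read numbers were recovered from the steps of the low values for 100% of the 10950 tested genes, within 0.01 of a whole number. A read number can be too small by a whole factor. Pairs of libraries of a group differed by 6.34 to 149 times sampling noise, so none was taken as a copy.

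For genes averaging 1 FPKM or more, limma 3.58.1 (R 4.3.3) compared the groups on log2(FPKM + 1) (trend, two-sided, Benjamini-Hochberg over 10950 genes, threshold 0.05). This scale understates the differences of low genes. A gene was called too low under 1 FPKM or with fewer than 10 reads in a library. Members and lists were chosen with earlier results of these data known. From each list the up to 6 genes with the highest mean FPKM were named, any gene past the test, and the 3 genes nearest in pattern to TNFSF14, CXCL2 and CXCL8. Promoter and protein sequences were not analysed here. Simulated data for 10950 genes gave every gene the same relative spread beyond counting and set no library apart, unlike Control 3 in the real data. On these simulated data with all 6 libraries, the fit recovered 93.9% of 2-fold changes with 8.58% false calls. With the 5 libraries without Control 3 it recovered 87.7% with 10.8% false calls. The threshold of 0.05 allows 5%, so calls in the simulation held more false ones than it states, and real calls without Control 3 may too. How far the simulated shares hold for the real libraries was not tested. As alternatives, the pseudocount, the filter, the scaling and the variance model were changed, and others used read numbers, a replicate block, and leaving out each library.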

Additional observations from a re-analysis of the deposited data

How the results depend on the processing

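The number of genes called was 0 in limma under each alternative over all 6 libraries, and 0 to 1194 with a library left out, where only the fit without Control replicate 3 called any. Among the genes of the 5 lists, the calls with a library left out were 0 to 5 lower and 0 to 2 higher in MT, and again all came without Control 3. Of the 8 cytokine and chemokine genes in the fit, 7 had a negative difference under each alternative run, and CSF1 was at 0.00 without Control 3. With a library left out, the differences ran from -1.65 to -0.93 for CXCL8, -1.15 to -0.58 for IL1A, -1.24 to -0.94 for CXCL2, -1 to -0.81 for TNFSF14, -0.75 to -0.47 for IL6, -0.70 to -0.40 for LIF, -0.63 to -0.24 for CCL2 and -0.28 to 0.00 for CSF1. The moves over 1.5 times were those of CCL2 without MT 2 (-0.63) or MT 3 (-0.24) and of CSF1 without Control 1 (-0.28) or Control 3. Reading CXCL6 from the AMCF-II row, chosen after seeing the data, left 0 calls in the lists in each direction. TNFSF14 moved by more than its spread between replicates with other pseudocounts and with reads (-1.13, -1.37 and -1.45). The size for CCL2 also depended on the scale. Its -0.41 (SE 0.22) became -0.64 (SE 0.34) with 0.1 FPKM added and -0.66 (SE 0.38) from reads by limma voom. The filter of 5 FPKM dropped TNFSF14 and CCL2, so they have no value there.

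Same-numbered libraries did not deviate together in each pair (correlation across genes -0.44, 0.63 and 0.34 for numbers 1 to 3), so the number was not taken as a pairing. The replicate block called 0 genes in limma, with 499 under an unadjusted p of 0.05 beside 517. With that block the SE of CXCL8 was 0.11 in place of 0.45, and that of IL1A 0.12 in place of 0.33. For IL6 it was 0.11 in place of 0.19, and for CCL2 0.16 in place of 0.22. The SE stayed at 0.19 for CXCL2 and changed little for LIF (0.2), CSF1 (0.15) and TNFSF14 (0.13). Whether the number marks a pairing is not said in the labels. Control 1 and Control 3 did not correlate best with MT libraries of their own number. Depth limits CCL2 (14 to 37 reads) most, then IL18 (46 to 118).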
